A study of Arabidopsis thaliana with 6 samples.

Results

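Amino acid transporters of the Arabidopsis thaliana seed are described here by the RNA levels of 10 genes in whole seeds of 2 genotypes. The genes were taken by locus identifier, with no threshold on a measured value, and make up 10 of the 33323 loci in the deposited table. The UMAMIT family gives 7 of them, UMAMIT11 (AT2G40900), UMAMIT14 (AT2G39510), UMAMIT18 (AT1G44800), UMAMIT24 (AT1G25270), UMAMIT25 (AT1G09380), UMAMIT28 (AT1G01070) and UMAMIT29 (AT4G01430). The amino acid permeases give 3, AAP1 (AT1G58360), AAP2 (AT5G09220) and AAP8 (AT1G10010). All 10 identifiers matched these names in the RefSeq gene table, where UMAMIT18 stands under its other name, SIAR1.

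The embryo and endosperm of a seed have no cell-to-cell channels to the mother plant, so every amino acid that feeds them must leave maternal cells and be taken up again on the filial side. UMAMIT proteins are membrane facilitators that let amino acids pass down their gradient, and several of them act in export from the seed coat, the chalaza and the endosperm. AAP proteins import amino acids together with protons and act in phloem loading and in uptake by endosperm and embryo.

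Seeds were dissected from siliques 6 days after manual self-pollination of Col-0 wild type (WT) plants or of Col-0 plants carrying DD25::IaaH, with 3 libraries of each genotype. The transgene encodes IaaH, a bacterial hydrolase that turns indole-3-acetamide into auxin. Its promoter is that of DD25, a gene active in the central cell, from which the endosperm arises. The series is about the role of auxin in the formation of cell walls in the endosperm, and the comparison made here asks which transporter transcripts differ in seeds with the transgene. The labels call the libraries biological replicates but name neither the plants behind each nor the number of transgenic lines, so p-values measure the spread between these libraries. RPKM, reads per kilobase of gene and per M reads in the library, was the deposited unit. It corrects for gene length, so levels can be compared between genes.

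The depth of the libraries, rebuilt from the steps between RPKM values, ran from 6.50 M reads in DD25::IaaH 2 to 17.8 M reads in WT 1. Reads fell on 82.1% and 63.8% of annotated pseudogenes in WT 1 and WT 2, against 21.3% to 32.9% in the other 4 libraries. Results over all genes and for called genes are therefore also given without WT 1 and WT 2, where genes could be tested. Over all genes, 3127 of 20880 tested genes (15%) passed an adjusted p of 0.05, 8.25% higher and 6.72% lower in DD25::IaaH. Leaving out a WT library gave 9.92% (WT 1, 2059 genes), 9.49% (WT 2, 1978 genes) or 19.7% (WT 3, 4133 genes). Leaving out a DD25::IaaH library gave 9.16% (the first, 1912 genes), 10.8% (the second) or 9.64% (the third, 2015 genes). With both WT 1 and WT 2 left out it was 5.15% (1063 genes). The share was 15.2% after quantile normalisation, 20.4% with library weights, 12.8% with no variance trend and 16.2% with voom on rebuilt reads. Seed markers were present, with the embryo factor LEC1 at 132 to 171 RPKM and the seed coat reductase gene BAN at 444 to 907 RPKM. Of 5 markers of the silique wall and carpel, IND and FUL stayed at or below 1.003 and 0.389 RPKM. The others were present in every library, with ALC at 9.22 to 14.4 RPKM, SHP1 at 21.3 to 35.7 RPKM and SHP2, which is also active in ovules, at 237 to 322 RPKM. In whole seeds, fewer cells of a type and less RNA per cell cannot be told apart.

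AAP8, an importer known from young seeds and from phloem loading, was the transporter of the 10 that changed. It rose from a WT mean of 0.813 ± 0.164 RPKM to a DD25::IaaH mean of 5.78 ± 1.65 RPKM (SD, n = 3). UMAMIT25, an exporter of the endosperm, had the highest level of the 10 in both genotypes, with means of 111 ± 8.56 RPKM for WT and 118 ± 5.81 RPKM for DD25::IaaH (SD, n = 3). Of the 10, 1 rose, 0 fell and 9 did not pass the test, which is 10% against 15% of all tested genes. Without WT 1 and WT 2 it was again 1 of 10, against 5.15% of all tested genes. The median log2 fold change of the 10 was 0.06, against 0.03 over all tested genes. All 10 passed the filter of a mean of 0.5 RPKM.

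The RefSeq sequences directly before these 2 genes are shown because AAP8 is the gene that changed and UMAMIT25 the most abundant gene that did not pass. Each is 250 bases of the TAIR10.1 assembly, 5′ to 3′ on the strand of the gene and ending at the base before the annotated gene start. Capitals mark TGTC or its reverse complement GACA, the core of the element bound by auxin response factors. AAP8 lies on the plus strand, and its stretch is chr1:3265636-3265885. UMAMIT25 lies on the minus strand, and its stretch is chr1:3029550-3029799.
AAP8: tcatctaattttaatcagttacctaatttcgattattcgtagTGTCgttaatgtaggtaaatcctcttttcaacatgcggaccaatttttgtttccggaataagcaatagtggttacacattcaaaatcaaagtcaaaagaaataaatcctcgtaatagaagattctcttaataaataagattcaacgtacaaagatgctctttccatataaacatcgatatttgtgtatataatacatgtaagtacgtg
UMAMIT25: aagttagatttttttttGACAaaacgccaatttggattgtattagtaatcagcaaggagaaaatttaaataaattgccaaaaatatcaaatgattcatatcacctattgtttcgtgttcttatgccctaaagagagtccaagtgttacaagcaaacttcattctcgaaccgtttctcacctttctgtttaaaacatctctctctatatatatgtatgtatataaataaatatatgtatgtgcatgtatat

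Each stretch holds 1 match to the core, 208 to 205 bases before the start of AAP8 and 233 to 230 bases before that of UMAMIT25. The core was found, on either strand, before 8 of the 10 genes and before 74.8% of 27443 protein-coding genes. The longer forms TGTCTC and TGTCGG, which contain the core, were found before 0 of the 10 and before 10.9% and 4.16% of protein-coding genes. A match is a string of letters and not a shown binding site.

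**Figure D1:**
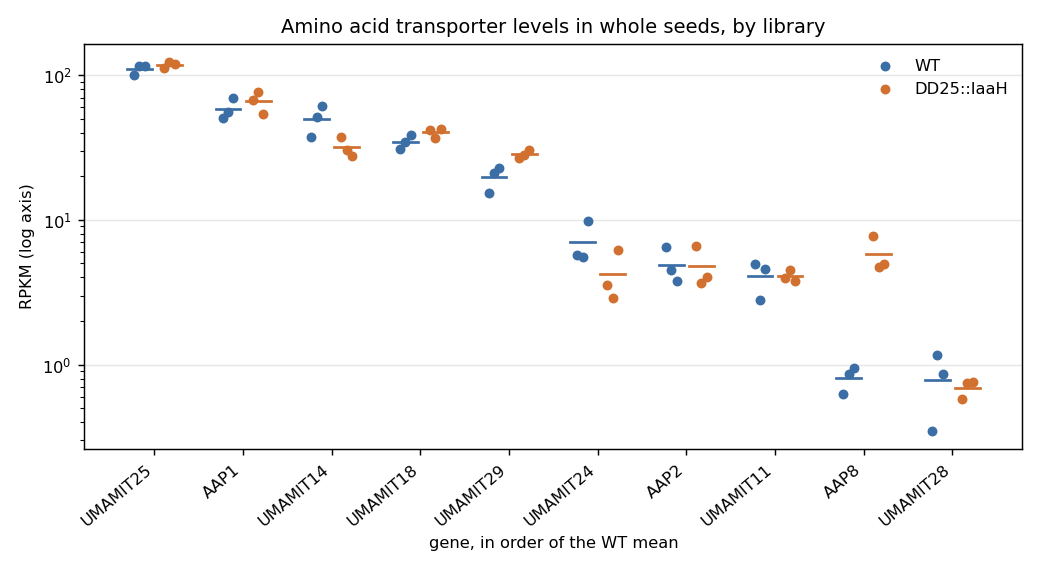
RPKM on a log axis for the 10 transporters, in order of the WT mean, with 3 WT libraries in blue and 3 DD25::IaaH libraries in orange; horizontal lines are group means. The DD25::IaaH points of AAP8 lie between 4.74 and 7.69 RPKM, above its WT points of 0.630 to 0.947, while most other genes overlap between genotypes.

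Among importers, AAP8 had 0.630, 0.861 and 0.947 RPKM in WT 1 to 3. In DD25::IaaH 1 to 3 it had 7.69, 4.74 and 4.92 RPKM. Every DD25::IaaH library was above every WT library, and DD25::IaaH 1 was the highest. These values stand for 16, 11 and 13 reads in WT and for 118, 44 and 64 reads in DD25::IaaH, and the WT level rests on few reads. The ratio of the means was 7.12. On the log2(RPKM + 0.5) scale, which understates the change of a low gene, the log2 fold change was 2.24 ± 0.26 (SE), with a limma adjusted p of 0.000491. Without WT 1 and WT 2 it was 2.09 with a limma adjusted p of 0.0286, where the single WT library is assumed to vary like the others.

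AAP1, an importer known for amino acid uptake by the embryo, was the most abundant of the 3 AAP genes. Its level was 50.3, 55.2 and 69.3 RPKM in WT 1 to 3 and 67.1, 76.1 and 54.1 RPKM in DD25::IaaH 1 to 3. The genotypes overlapped. Its log2 fold change of 0.17 had a 95% interval of -0.21 to 0.55, not adjusted for the number of genes, and it did not pass (limma adjusted p 0.549). AAP2, known for moving amino acids from xylem to phloem, had 6.46, 4.48 and 3.77 RPKM in WT against 6.64, 3.69 and 4.04 RPKM in DD25::IaaH. It was highest in library 1 of both genotypes and overlapped, with a log2 fold change of -0.04 and an interval of -0.65 to 0.57.

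AAP8 made up 1.27 ± 0.162% of the summed RPKM of the 3 AAP genes in WT and 7.62 ± 1.92% in DD25::IaaH (SD, n = 3). AAP1 held 90.8 ± 3.01% and 86.1 ± 3.81% (SD, n = 3). The summed level of the 3 genes was 57.4 to 74.04 RPKM for WT against 63.1 to 84.5 RPKM for DD25::IaaH, and overlapped.

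Among exporters, UMAMIT25 had 101, 116 and 115 RPKM in WT 1 to 3 and 111, 122 and 120 RPKM in DD25::IaaH 1 to 3. The values overlapped and spread little within a genotype. With 1247 to 2809 reads per library, its log2 fold change of 0.09 had an interval of -0.16 to 0.35, the narrowest of the 10, and a limma adjusted p of 0.648. UMAMIT25 made up 49.0 ± 3.06% of the summed RPKM of the 7 UMAMIT genes in WT and 51.8 ± 2.37% in DD25::IaaH (SD, n = 3).

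UMAMIT29, an exporter of fruit and seed, was the other gene whose genotypes did not overlap. It had 15.3, 21.2 and 22.7 RPKM in WT 1 to 3 and 26.8, 28.1 and 30.5 RPKM in DD25::IaaH 1 to 3. WT 1 was the lowest library. The log2 fold change of 0.54 ± 0.16 (SE) did not pass (limma adjusted p 0.0608), and its unadjusted interval was 0.16 to 0.91. It passed without WT 3 (0.0279), with library weights (0.0385) and with voom on rebuilt reads (0.0415), and was 0.32 with a limma adjusted p of 0.396 without WT 1 and WT 2. Over all tested genes 18.4% had every DD25::IaaH library above every WT library, so 2 of 10 was near that share. The reverse held for 14.9% of all tested genes and 0 of the 10, and groups were separate in either direction for 33.3% of all tested genes.

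UMAMIT29 lies in a row with its family members UMAMIT31 and UMAMIT30 on chromosome 4, which are given for their position and lie outside the naming rule. UMAMIT31 had 0.467 to 1.61 RPKM in WT against 1.23 to 2.47 RPKM in DD25::IaaH and did not pass (limma adjusted p 0.300). UMAMIT30 was below the filter, with at most 0.529 RPKM. Both neighbours were lower than UMAMIT29 in every library.

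UMAMIT14, an exporter known from sites of phloem unloading, had 37.1, 51.7 and 61.0 RPKM in WT 1 to 3. In DD25::IaaH 1 to 3 it had 37.4, 30.6 and 27.8 RPKM. WT 1 lay within the DD25::IaaH range and the other WT libraries above it. The log2 fold change of -0.62 ± 0.19 (SE) did not pass (limma adjusted p 0.0657, unadjusted interval -1.06 to -0.18). It was -0.82 with a limma adjusted p of 0.0201 without WT 1, and -0.68 with 0.0482 after quantile normalisation. Without WT 1 and WT 2 it was -0.93 with 0.0666.

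UMAMIT24, a transporter known from the chalaza, had 5.69, 5.55 and 9.74 RPKM in WT 1 to 3 and 3.57, 2.88 and 6.17 RPKM in DD25::IaaH 1 to 3. The third library was the highest in each genotype, and the groups overlapped. Its log2 fold change of -0.69 ± 0.30 (SE) did not pass (limma adjusted p 0.173, unadjusted interval -1.37 to -0.00061). UMAMIT18, a transporter of vascular tissue known for supplying siliques, had 31.1 to 38.5 RPKM in WT against 36.9 to 42.5 RPKM in DD25::IaaH. The groups overlapped through WT 3 and DD25::IaaH 2, and the log2 fold change of 0.22 had an interval of -0.07 to 0.51.

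UMAMIT11 and UMAMIT28, exporters of fruit and seed, were low. UMAMIT11 had 2.81 to 4.94 RPKM in WT against 3.78 to 4.54 RPKM in DD25::IaaH, and its log2 fold change of 0.02 had an interval of -0.51 to 0.55. UMAMIT28 had 0.349, 1.16 and 0.861 RPKM in WT against 0.577, 0.743 and 0.758 RPKM in DD25::IaaH, from 7 to 15 reads per library. Its log2 fold change of -0.06 had an interval of -0.86 to 0.74. That interval includes the -0.62 of UMAMIT14, so a change of that size was not excluded. Of the 50-base exon windows of UMAMIT28, 2.02% also occurred elsewhere in the genome. For the other 9 genes 0 windows did, and none of the 10 overlapped another annotated gene.

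**Figure D2:**
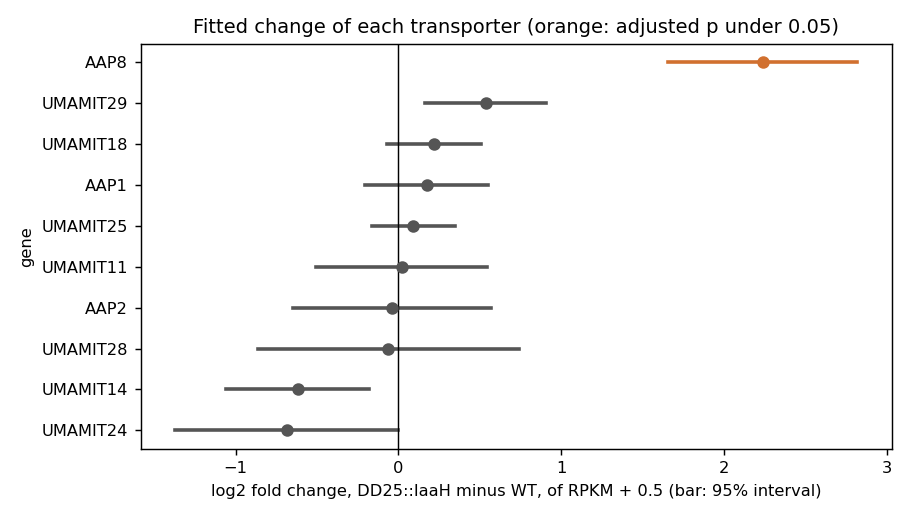
Log2 fold change of RPKM + 0.5, DD25::IaaH minus WT, for each of the 10 transporters, with unadjusted 95% intervals as bars; orange marks an adjusted p under 0.05. AAP8 stands at 2.24, and the other 9 lie between -0.69 and 0.54.

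The order of levels in WT was UMAMIT25, AAP1, UMAMIT14, UMAMIT18, UMAMIT29, UMAMIT24, AAP2, UMAMIT11, AAP8 and UMAMIT28. In that order the libraries of AAP1 and UMAMIT14, of UMAMIT14 and UMAMIT18, of UMAMIT24 and AAP2, of AAP2 and UMAMIT11, and of AAP8 and UMAMIT28 overlapped. The other neighbours were separate. In DD25::IaaH, AAP8 ranked 6 in place of 9, followed by AAP2, UMAMIT24 and UMAMIT11, each overlapping with the next. UMAMIT18 stood above UMAMIT14, with overlap. Summed over the 7 UMAMIT genes, the level was 227 ± 29.2 RPKM in WT against 228 ± 3.16 RPKM in DD25::IaaH (SD, n = 3), and WT 1 was the lowest library at 195 RPKM. Within that sum UMAMIT14 held 19.01% to 24.1% in WT and 12.03% to 16.6% in DD25::IaaH, and UMAMIT29 held 7.81% to 9.12% and 11.9% to 13.2%. UMAMIT18 held 14.8% to 15.9% and 16.3% to 18.6%. These 3 shares were separate between genotypes while the sum overlapped, and those of the other 4 overlapped. In RPKM, UMAMIT14 and UMAMIT18 overlapped between genotypes and UMAMIT29 was separate. In RPKM, 33.3% of all tested genes were separate in either direction, and no such background was made for shares of a sum. Shares of a sum depend on each other and were not tested.

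Some markers of other seed tissues differed in the same libraries, where 8.25% of all tested genes rose and 6.72% fell. The marker lists are short. Of 7 seed coat markers, 3 rose and 4 did not pass, and their summed level was 552 to 759 RPKM for WT against 924 to 1089 RPKM for DD25::IaaH. Most of that sum was BAN, and the other 6 summed to 107 to 155 RPKM for WT and 168 to 182 RPKM for DD25::IaaH. BAN, TT2 and TT12 had limma adjusted p of 0.0149, 0.0138 and 0.0210, but 0.257, 0.239 and 0.140 without WT 1 and WT 2, and passed under 12, 14 and 12 of 17 alternatives. Of 7 endosperm markers, 3 rose, namely the imprinted genes FWA and FIS2 and the growth regulator gene MINI3. The 4 that did not pass went both ways, with log2 fold changes of -0.22 (ZOU), -0.29 (IKU2), 0.09 (MEA) and 0.35 (SUC5). MINI3 reached the filter only through DD25::IaaH, with means of 0.038 RPKM for WT and 1.78 RPKM for DD25::IaaH. FWA passed under 10 of 17 alternatives, FIS2 under 14 of 17 and MINI3, which had no read in WT 2 and WT 3, under 15 of 16. Without WT 1 and WT 2 none of the 3 passed (limma adjusted p 0.458, 0.192 and 0.0797). All 7 summed to 121 to 157 RPKM in WT against 161 to 187 RPKM in DD25::IaaH. Most of that sum was the sucrose carrier gene SUC5, which did not pass (limma adjusted p 0.132), and the other 6 summed to 35.3 to 42.7 RPKM for WT and 43.6 to 47.2 RPKM for DD25::IaaH. Of 4 embryo markers 3 were tested and 0 passed with limma (0 had an unadjusted p under 0.05 and 0 passed with voom), with sums of 174 to 189 RPKM and 148 to 178 RPKM. Of 5 phloem markers, the sodium and potassium transport regulator gene NAKR1 rose (limma adjusted p 0.00343, and 0.0435 without WT 1 and WT 2) and the sucrose carrier gene SUC2 did not pass, with sums of 18.7 to 27.1 RPKM and 29.9 to 42.3 RPKM. The sieve element genes SEOR1 and SEOR2 and the phloem identity gene APL were at or below 0.575 RPKM in every library. The part of these tissues in the levels of AAP8, UMAMIT29, LHT1, LHT2 and GDH3 was not tested.

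Of the 10 transporter genes, 6 lie on chromosome 1, 2 on chromosome 2 and 1 each on chromosomes 4 and 5. Near-absent genes, a rule chosen after the values were seen, had at least 3 RPKM in every WT library and, in every DD25::IaaH library, less than the lowest WT value divided by 15. They lay in 4 long ranges of loci on chromosomes 2 to 5. Inside these ranges 8.74% of tested genes were higher and 11.9% lower, against 7.99% and 3.99% outside. The ranges were bounded by genes far lower in these same data, which are counted in them, so a larger lower share inside is partly built in. None of the 10 transporters lay inside a range, though UMAMIT29, at AT4G01430, was close to the first locus of the range on chromosome 4, AT4G01593.

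The other amino acid transporters comprised 40 further UMAMIT genes and 29 carriers of the AAP, CAT, LHT, ProT, GAT, ANT and BAT groups. Of these 69 genes, 47 were tested, 4 rose, 4 fell and 39 did not pass. That is 17.02% of those tested, against 15% of all tested genes, and their median log2 fold change was 0.10. The count was 13 without WT 3 and 2 without WT 1 and WT 2 together. All 5 other AAP genes were tested and 0 passed with limma, while 4 had an unadjusted p under 0.05 and 0 passed with voom. Those 4 went both ways, with log2 fold changes of 0.92 (AAP3), 0.44 (AAP5), -0.90 (AAP4) and -0.90 (AAP7). AAP3, a carrier of basic amino acids chosen after its values were seen, came nearest, at a limma adjusted p of 0.0914. Its WT libraries had 0.653 to 1.94 RPKM and its DD25::IaaH libraries 2.32 to 3.03 RPKM, and it passed under 2 of 16 alternatives.

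**Figure D3:**
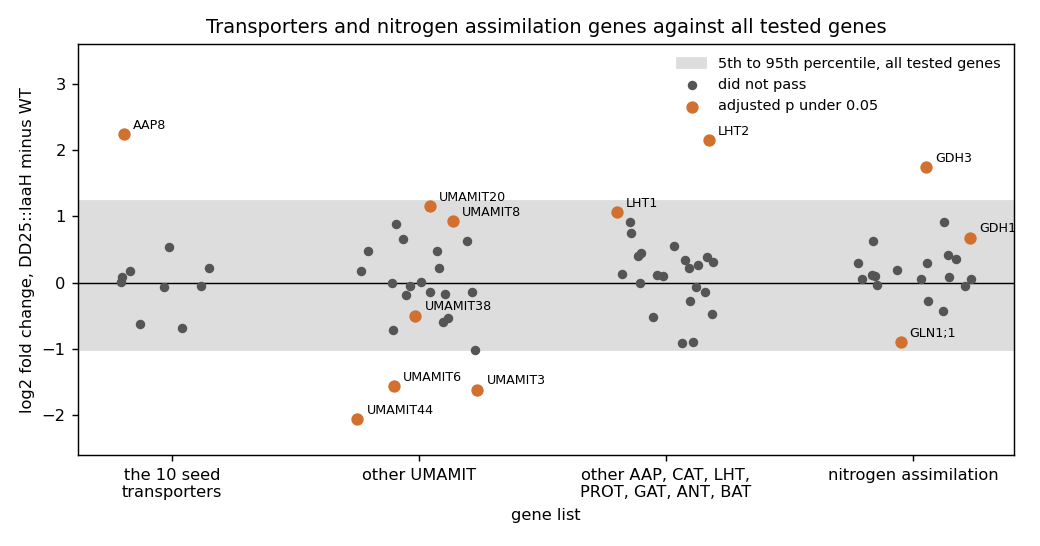
Log2 fold change, DD25::IaaH minus WT, of each tested gene in 4 lists, spread sideways at random within a list; orange and named genes had an adjusted p under 0.05, and the grey band spans the 5th to 95th percentile of all tested genes, -1.02 to 1.23. AAP8, LHT2 and GDH3 lie above the band, and UMAMIT44, UMAMIT3 and UMAMIT6 lie below it.

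LHT2, a lysine and histidine transporter known from anthers, rose from 0.596 ± 0.260 to 4.36 ± 1.11 RPKM (SD, n = 3). Its log2 fold change was 2.15 ± 0.28 (SE), at a limma adjusted p of 0.00110, and was 2.29 without WT 1 and WT 2. Like AAP8, LHT2 was low in every WT library, at 0.418, 0.894 and 0.476 RPKM. In DD25::IaaH it had 5.64, 3.87 and 3.58 RPKM, above every WT library. LHT1, a broad importer of roots and leaves that the naming rule did not reach and that was chosen after its values were seen, rose from 5.81 ± 0.604 to 12.8 ± 2.46 RPKM (SD, n = 3). Its limma adjusted p was 0.00463, and it did not pass without WT 1 and WT 2. The LHT family had 4 tested genes, of which 2 rose and 2 did not pass. LHT4 was lower, with means of 16.1 RPKM for WT and 11.2 RPKM for DD25::IaaH (limma adjusted p 0.0553). Every DD25::IaaH library of LHT4 was below every WT library, and it passed under 6 of 17 alternatives. LHT9 overlapped between genotypes. Of the CAT carriers 0 of 8 tested passed with limma, while 2 had an unadjusted p under 0.05 and 0 passed with voom.

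UMAMIT8 rose from 55.3 ± 4.45 to 105 ± 7.10 RPKM (SD, n = 3). Its log2 fold change was 0.93 ± 0.12 (SE), at a limma adjusted p of 0.000798, and was 1.06 without WT 1 and WT 2. UMAMIT8 had 97.7, 107 and 112 RPKM in DD25::IaaH 1 to 3. In every library UMAMIT8 was below UMAMIT25, which had 111, 122 and 120 RPKM in DD25::IaaH 1 to 3. UMAMIT20 rose from 0.506 ± 0.119 to 1.75 ± 0.370 RPKM (SD, n = 3), at a limma adjusted p of 0.0295. It passed under 9 of 16 alternatives. It did not pass without WT 1, WT 2 or any DD25::IaaH library, with limma adjusted p from 0.0564 to 0.107, nor without WT 1 and WT 2 together (0.131).

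UMAMIT6 fell from 4.64 ± 0.949 to 1.24 ± 0.333 RPKM and UMAMIT3 from 4.44 ± 1.21 to 1.12 ± 0.376 RPKM (SD, n = 3), with limma adjusted p of 0.00352 and 0.00500. Without WT 1 and WT 2 these were 0.145 and 0.156. UMAMIT44 had 1.62, 2.18 and 1.75 RPKM in WT 1 to 3. In DD25::IaaH it had 2 reads in library 2 and none in the others. It fell, with a limma adjusted p of 0.00328. Its mean reached the 0.5 RPKM filter only through the WT libraries, so the test rests on the level in that group. Without WT 1 and WT 2 together UMAMIT44 was below the filter and was not tested. UMAMIT38 fell from 62.4 ± 5.73 to 44.3 ± 6.16 RPKM (SD, n = 3), at a limma adjusted p of 0.0444, and passed under 8 of 17 alternatives. It did not pass without WT 1, WT 2 or any DD25::IaaH library (0.0639 to 0.160), without WT 1 and WT 2 together (0.389), with no variance trend (0.0959) or with no filter (0.0565). All 4 UMAMIT genes that fell and both that rose lie within the 4 ranges that hold the near-absent genes, as do 12 of the 24 tested other UMAMIT genes (50%) and 34.6% of all tested genes. AAP8, LHT1 and LHT2 lie outside them.

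Once delivered, amino acids are made and broken down by nitrogen assimilation enzymes. Of 21 such genes, 20 were tested, 2 rose, 1 fell and 17 did not pass, which is 15% of those tested, as over all tested genes, with a median log2 fold change of 0.11. GDH3, a glutamate dehydrogenase, rose from 3.58 ± 0.783 to 13.1 ± 1.98 RPKM (SD, n = 3). Its log2 fold change was 1.75 ± 0.20 (SE), at a limma adjusted p of 0.000473, and was 2.06 without WT 1 and WT 2. GDH1, a relative of GDH3, rose from 14.8 ± 0.305 to 24.2 ± 2.84 RPKM (SD, n = 3). The limma adjusted p was 0.00917, and 0.142 without WT 1 and WT 2.

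GLN1;1, a cytosolic glutamine synthetase, fell from 58.7 ± 4.56 to 32.3 ± 9.05 RPKM (SD, n = 3), at a limma adjusted p of 0.0197. It did not pass without WT 1 (0.0534), without WT 2 (0.0744), without both (0.275) or without the variance trend (0.0509). ASPGB1, an asparaginase that frees ammonium from a main transport form of nitrogen, had 12.004 ± 1.87 and 16.1 ± 1.95 RPKM (SD, n = 3) and did not pass (limma adjusted p 0.124). Of the 20 tested enzyme genes, 15 overlapped between genotypes, 3 were separate and higher in DD25::IaaH, and 2 were separate and lower. Over all tested genes 18.4% were separate and higher and 14.9% separate and lower.

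**Figure D4:**
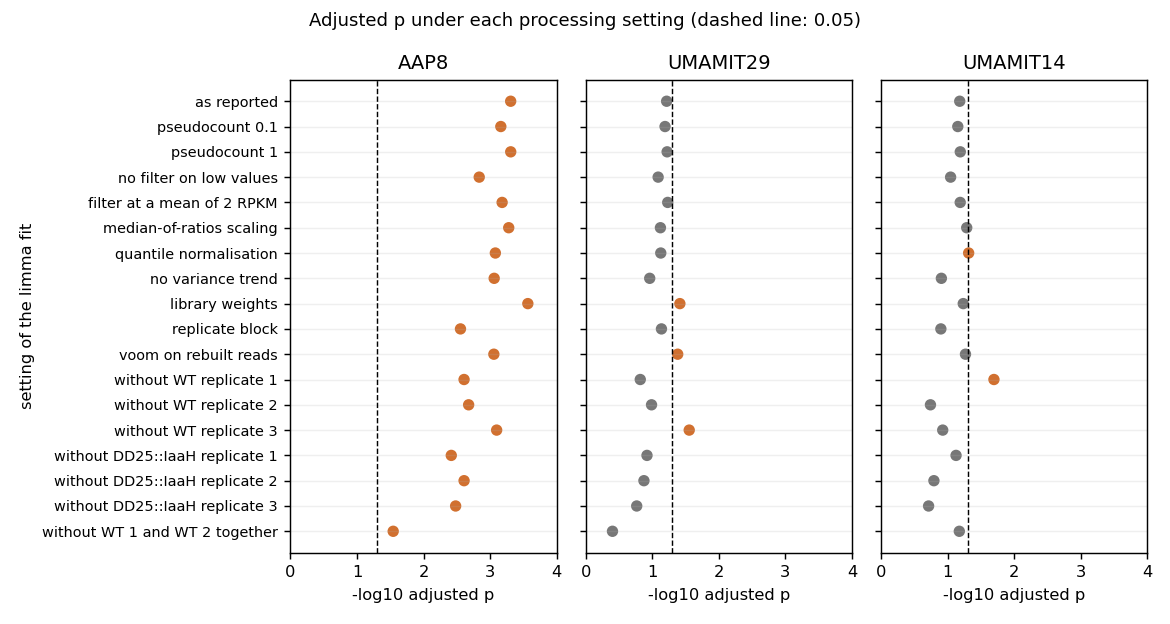
Minus log10 of the limma adjusted p under each processing setting for AAP8, UMAMIT29 and UMAMIT14; the dashed line marks 0.05 and orange points lie beyond it. AAP8 passed under all 17 alternatives, UMAMIT29 under 3 and UMAMIT14 under 2. AAP8 met the filter at a mean of 2 RPKM only through DD25::IaaH.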

How the data were processed

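The authors deposited RPKM values for 33323 loci in 3 WT and 3 DD25::IaaH seed libraries. TopHat2 2.1.0 and TAIR10 are named per the submitters' processing notes. How reads were counted, with or without strand or multiple matches, is not stated in those sources. Library depth and reads per gene were rebuilt from the RPKM steps. For 100% of loci above 0 a gene length gave whole reads, within 0.01 reads plus a small part of the count. That length was searched for each locus and equalled the RefSeq exon length at 9167 loci, so rebuilt reads rest on it. Genes averaging 0.5 RPKM or more were tested on log2(RPKM + 0.5) with limma 3.58.1 in R 4.3.3 (eBayes with trend, genotype as the only term). Tests were two-sided with Benjamini and Hochberg adjustment over 20880 genes. The fit was tested on simulated data. Members and lists were chosen with earlier results of these data known. Named were the 10 transporters, the 4 genes of smallest adjusted p among the other transporters and among the nitrogen assimilation genes, every called UMAMIT or AAP gene, and markers that were called or define a tissue. LHT1, LHT4, LHT9, AAP3, AAP4, AAP5, AAP7, UMAMIT30 and UMAMIT31 lie outside this rule. Names, overlaps and sequences came from RefSeq TAIR10.1, an update of the TAIR10 assembly, and were joined by locus identifier, since the deposited table holds no coordinates. Fits without the filter, with other pseudocounts, scalings or libraries were alternatives.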

Additional observations from a re-analysis of the deposited data

How the results depend on the processing

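AAP8 kept its direction and its call under all 17 alternatives. With a WT mean of 0.813 RPKM, it met 1 of these, the filter at a mean of 2 RPKM, only through DD25::IaaH. The count of called transporters among the 10 was 2 after quantile normalisation (with UMAMIT14), 2 with library weights and 2 with voom on rebuilt reads (both with UMAMIT29), and 1 to 2 when single libraries were left out. Over all tested genes, 1912 to 4133 were called when single libraries were left out and 1063 without WT 1 and WT 2 together. Of the other amino acid transporters, 13 were called with library weights, 6 to 13 when single libraries were left out and 2 without WT 1 and WT 2 together. Of the nitrogen assimilation genes, 2 to 4 were called when single libraries were left out and 1 without WT 1 and WT 2 together; leaving out libraries leaves fewer samples, and the other causes were not tested. With the replicate number as a block, 1 of the 10 transporters, 6 other transporters, 3 nitrogen assimilation genes and 2429 of all tested genes were called, and UMAMIT20 (adjusted p 0.0608) and UMAMIT38 (0.0642) no longer passed with limma. Same-numbered libraries did not deviate together (correlations of -0.08, -0.03 and -0.10), so the numbers were not taken as pairs. Under 10 to 20 reads per library, as for UMAMIT28 and for AAP8 in WT, depth limits the precision.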
